A study of Rattus norvegicus with 4 samples.

Results

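Kap and the genes of the receptor complex that takes up filtered protein in the proximal tubule were described in kidney inner medulla of female and male rats. The genes were found by symbol in the deposited table of 35374 loci. Of 6 symbols sought (Kap, Cubn, Lrp2, Amn, Dab2 and Tmigd1), 5 had a row, each on 1 row alone, and all 5 had been tested by the authors. The expression of Lrp2 is not analysed here. The 6 symbols were chosen by name with earlier results of these data in view, above all the FPKM ratios of Kap, Cubn and Tmigd1 between the sexes, and where a symbol had several rows the highest summed FPKM would have selected the row, so the size of their difference between the sexes is a description and not independent evidence.

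The animals were Sprague Dawley rats from Envigo, bought at 13 to 15 weeks of age and put on a diet of 0.49% NaCl at 14 to 16 weeks, which they ate for 2 weeks with no other treatment. Sex was what set the groups apart. Each sex was sequenced as 2 pools of 4 rats, so a library stands for a pool and not for an animal. The table gives 1 FPKM value (fragments corrected for transcript length and for library size) for each locus and sex with the 2 pools joined (its header states no unit, and FPKM was read from its layout). The values below therefore carry no spread between pools and no error of their own. Beside them stands the q-value of the authors' deposited table, which does not measure the spread of a value or a ratio. Female libraries held 41945343 and 37630274 read pairs, and male libraries held fewer, 34552171 and 36978021.

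The proximal tubule reclaims protein that passes the glomerular filter. Cubilin (Cubn) is a large receptor on the brush border that has no membrane anchor of its own; it binds albumin, transferrin and the complex of vitamin B12 with intrinsic factor. Amnionless (Amn) anchors it and brings it to the cell surface, and megalin (Lrp2), a giant relative of the LDL receptor, is taken into the cell together with it. The adaptor Dab2 ties the tail of megalin to clathrin. Tmigd1 is a membrane protein with immunoglobulin domains found at the brush border of epithelia. Kap is the kidney androgen-regulated protein, an abundant transcript of proximal tubule cells that androgen induces in mouse. The proximal tubule lies in the cortex and outer medulla, not in the inner medulla.

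The stretches around the start sites of the 3 genes with the widest difference between the sexes, and of Amn, which had the narrowest, show the sequence beside which the values can be read. They run from 250 bases before to 50 bases after the start that RefSeq annotates in build GRCr8, 5′ to 3′ along the gene. Capitals mark CAAAGTNCA, the core of a site of the tubule factor HNF4 with 1 base left open, searched on both strands.
Kap, chr4:168408983-168409282, - strand: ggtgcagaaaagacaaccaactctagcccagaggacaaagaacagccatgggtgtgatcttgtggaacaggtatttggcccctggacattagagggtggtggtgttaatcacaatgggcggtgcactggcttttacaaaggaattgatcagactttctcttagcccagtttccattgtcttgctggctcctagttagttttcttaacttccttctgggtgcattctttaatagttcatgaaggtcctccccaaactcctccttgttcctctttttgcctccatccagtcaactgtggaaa
Cubn, chr17:81501645-81501944, - strand: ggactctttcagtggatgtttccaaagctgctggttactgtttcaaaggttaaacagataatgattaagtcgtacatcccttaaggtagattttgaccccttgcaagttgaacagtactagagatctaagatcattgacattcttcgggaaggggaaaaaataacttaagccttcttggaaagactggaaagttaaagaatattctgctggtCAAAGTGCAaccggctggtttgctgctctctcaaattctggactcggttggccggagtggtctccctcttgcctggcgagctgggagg
Tmigd1, chr10:62236965-62237264, + strand: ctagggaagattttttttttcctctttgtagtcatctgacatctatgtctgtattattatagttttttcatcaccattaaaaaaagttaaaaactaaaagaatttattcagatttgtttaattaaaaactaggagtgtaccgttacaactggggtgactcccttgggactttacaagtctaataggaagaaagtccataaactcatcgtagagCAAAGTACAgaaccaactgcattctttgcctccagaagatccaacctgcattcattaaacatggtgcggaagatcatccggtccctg
Amn, chr6:136132317-136132616, + strand: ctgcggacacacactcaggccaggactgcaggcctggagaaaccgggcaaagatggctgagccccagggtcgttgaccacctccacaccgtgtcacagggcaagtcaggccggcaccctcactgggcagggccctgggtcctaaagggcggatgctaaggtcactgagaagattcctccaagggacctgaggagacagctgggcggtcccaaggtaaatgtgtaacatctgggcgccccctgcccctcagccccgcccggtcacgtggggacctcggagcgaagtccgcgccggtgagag
CAAAGTNCA was in the promoters of Cubn, Tmigd1 and Lrp2 and in 1.24% of 33469 rat promoters of the same length, and not in those of Kap, Amn and Dab2. Its first base lies 38 bases before the start in Cubn, 37 in Tmigd1 and 168 in Lrp2. The open base in this motif was chosen after the sequences had been seen, and the strict core CAAAGTCCA, in 0.391% of all promoters, was in none of the 6. These are matches of letters, with no measure of binding.

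Cubn, Tmigd1 and Kap were 6.98-fold, 8.66-fold and 6.95-fold higher in females, Dab2 was 1.53-fold higher, and Amn was at nearly the same level in both sexes. Of the 5 measured genes, 4 passed q under 0.05 towards females by the test of the authors' deposited table, where 1.63% of 20307 tested loci were called in that direction. None was called higher in males, where the share over all tested loci was 0.719%. Because the genes were chosen with these results known, nothing is read from these contrasts of shares. On the log2 scale the median ratio, female over male, was 2.80 for the 5 genes and 0.00 for all tested loci. For the same reason nothing is read from this contrast of medians. Where a pair of values stands below without the sexes named, the female value comes first.

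Cubn, the receptor that binds the ligands, was at 2.40 FPKM in female and 0.344 FPKM in male pools. The male level was 14.3% of the female level, and q was 0.00391 in the authors' deposited table, which is the smallest value that table holds. This value is a floor that 260 tested loci share, so it does not rank Cubn among them. Its locus is chromosome 17, 82205508 to 82425565 in build rn5, with no other row in the same interval. The transcript was scarce in both sexes. In males 4.18% of tested loci had a lower level, and in females 36.7% did. With a pseudocount of 1 FPKM in both sexes its ratio came down to 2.53-fold, so the size of the difference depends on how a male value below 1 FPKM is treated.

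Amn, the membrane anchor of cubilin, was at 4.52 FPKM in female and 4.18 FPKM in male pools, a 1.08-fold difference with q = 0.999 in the authors' deposited table. Its locus is chromosome 6, 144682578 to 144690020 (rn5). On the FPKM scale, which allows for length, the level of Cubn was 0.531 of that of its partner Amn in females and 0.0822 of it in males. The difference between the ratios of the 2 genes was not tested, since no value per pool could be used.

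Dab2, the adaptor that couples megalin to the clathrin coat, was at 14.4 FPKM in female and 9.43 FPKM in male pools (chromosome 2, 75381856 to 75512030 in rn5). Its q was 0.0408 in the authors' deposited table, just under the threshold, and it is not called at q under 0.01. Of 293 loci called higher in females with a value above 0 in both sexes, Dab2 had the ratio ranked 290, and Cubn that ranked 22. Dab2 is known also from macrophages, endothelium and other cells outside the tubule, whose markers are given below.

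Tmigd1, the brush border membrane protein, was at 4.25 FPKM in female and 0.491 FPKM in male pools (chromosome 10, 62961332 to 62973377 in rn5), with q = 0.00391 in the authors' deposited table. It had the widest ratio of the 5 genes without a pseudocount, and with a pseudocount of 1 FPKM its ratio was 3.52-fold. In females Tmigd1 and Amn were at nearly equal FPKM, with a ratio of 0.940, while in males Tmigd1 was at 0.117 of the level of Amn.

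Kap was at 910 FPKM in female and 131 FPKM in male pools, with q = 0.00391 in the authors' deposited table. Among tested loci its level ranked 122 in females and 807 in males, and it made up 0.129% of the summed FPKM of females and 0.0178% of that of males. Of 1060 tested loci with a mean of at least 100 FPKM and a value above 0 in both sexes, no other had a ratio towards females as large as that of Kap, and 2.55% were called in either direction. Kap was chosen with its ratio in view, so its place among them is a description alone. A pseudocount of 1 FPKM left its ratio nearly as it was, at 6.91-fold. The interval listed for Kap, chromosome 4, 230009067 to 230209088 (rn5), is 200022 bases wide and is shared with 5 rows without a symbol, whose highest level was 0.327 FPKM. In mouse Kap is named for its induction by androgen; here its level was higher in the females.

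The order of the levels was alike in both sexes. In females it ran from Kap over Dab2, Amn and Tmigd1 to Cubn, and in males in the same sequence. Neighbours in that order were far apart for Kap and Dab2, with a ratio of 63.3 in females and 13.9 in males. Whether Amn and Tmigd1 differed in females beyond the spread between pools could not be tested with 1 value per sex.

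**Figure D1:**
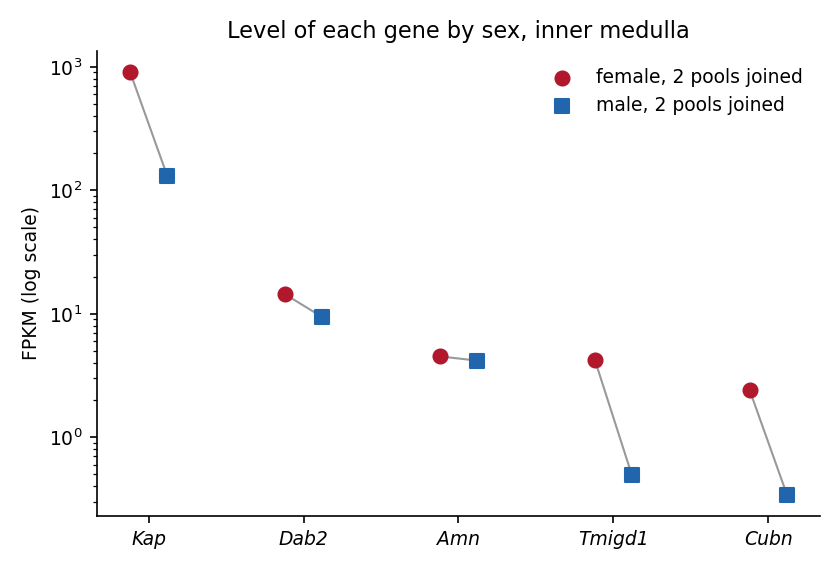
Level of the 5 measured genes in inner medulla, in FPKM on a log axis, with 1 point per sex (2 pools joined by the authors, so there are no error bars) and a line joining the sexes. The lines of Kap, Tmigd1 and Cubn fall steeply from female to male, that of Dab2 falls from 14.4 to 9.43, and that of Amn is nearly level at 4.52 and 4.18.

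**Figure D2:**
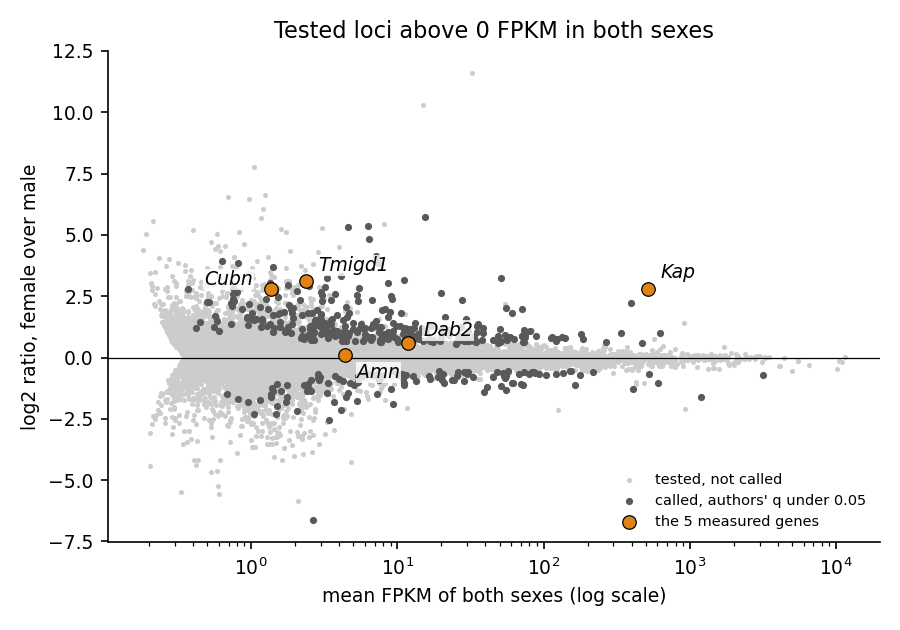
Log2 ratio of female to male (vertical) against the mean FPKM of both sexes (horizontal, log axis) for the 20037 tested loci above 0 in both sexes; dark points were called in the authors' deposited table and the 5 genes are in orange. Ratios spread more widely at low level, where Cubn and Tmigd1 lie, and Kap stands above every other locus of at least 100 FPKM.

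Cubn, Tmigd1 and Amn all lay between 1 and 5 FPKM on average over the sexes. Of 6825 tested loci in that range with a value in both sexes, 0.703% had a ratio towards females at least as large as that of Cubn and 0.425% one as large as that of Tmigd1, while 43.3% had one as large as that of Amn. For Dab2 the share was 2.78% of 8998 tested loci between 5 and 100 FPKM. The genes were chosen with their ratios in view, so these shares are descriptions and not tests.

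**Figure D3:**
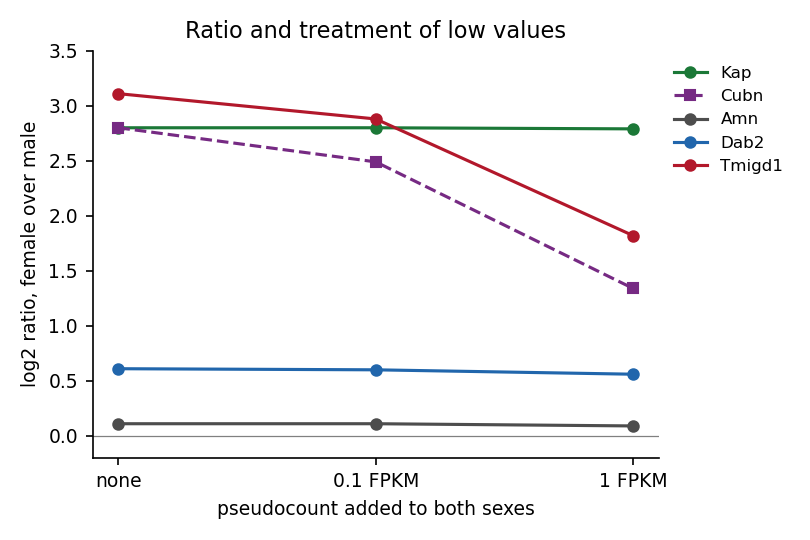
Log2 ratio of female to male for the 5 genes with no pseudocount and with 0.1 or 1 FPKM added to both sexes. Kap stays at 2.80 to 2.79, Cubn comes down from 2.80 to 1.34 and Tmigd1 from 3.11 to 1.82, and all 5 stay above 0.

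The loci with a symbol whose 2 values lay nearest to those of each gene were found by the distance between log2 levels in females and in males, over 13021 candidates. With 2 values per locus this likeness says only that the levels were close. The nearest to Cubn were Slc22a25, at 2.53 FPKM in female and 0.390 FPKM in male pools, and Akr1c1, at 2.41 and 0.294 FPKM. The nearest to Tmigd1 were Cyp2e1, a cytochrome P450, at 4.35 and 0.583 FPKM, and Slc22a24, at 3.54 and 0.548 FPKM. All 4 of these were called in the authors' deposited table, and members of the Slc22a and Akr1c families have close copies between which reads may have been divided in an uncertain way. Kap had no close neighbour: the nearest was the locus joining Rhbdl1 and Stub1, at 653 and 139 FPKM, 0.49 away on the log2 scale, then Igfbp5, at 451 and 223 FPKM and 1.27 away. Dab2 lay nearest to the chemokine Ccl19, at 14.6 and 9.65 FPKM, and to Cytip, at 14.1 and 9.13 FPKM, neither of which was called (q of 0.345 and 0.0827 from the authors' deposited table). Amn lay nearest to Sts and Cox11, each 0.01 away.

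Genes of the general machinery of endocytosis had a median ratio close to equal levels in the sexes, and Ctsl, given below, was called. This list holds clathrin, its adaptors, Rab proteins, receptor chaperones and lysosomal proteins. Of its 31 genes tested under the listed symbols, none was called in either direction by the test the authors deposited. Over all tested loci the share called was 2.34%, near which that count lies. No gene under its listed symbol reached an unadjusted p under 0.05 either, and the median log2 ratio was -0.06. Ctsl, a lysosomal protease, stands in the table under its older symbol Ctsl1 and was called, at 563 FPKM in female and 376 FPKM in male pools (q of the authors' deposited table, 0.0320). Lrpap1, the chaperone that keeps megalin free of ligand on its way to the surface, was at 62.4 FPKM in female and 53.1 FPKM in male pools (q of the authors' deposited table, 0.822). Clcn5, the chloride transporter of endosomes whose loss causes proteinuria in human, was at 6.48 and 5.59 FPKM (q of the authors' deposited table, 0.927). The tested genes under their listed symbols ran from -0.34 to 0.46 in log2 ratio, and Ctsl, at 0.58, lies outside that range. For the 5 genes the range was 0.11 to 3.11. They were chosen with their ratios in view, so nothing is read from the contrast of ranges.

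Of 11 tested genes of the LDL receptor family, to which megalin belongs, 1 was called, against 2.34% of all tested loci. Lrp1, a receptor of many cell types that also binds Lrpap1, was at 4.27 FPKM in female and 2.45 FPKM in male pools (q of the authors' deposited table, 0.00391). Lrp5, a coreceptor of Wnt signalling, was at 42.6 and 59.0 FPKM (q of the authors' deposited table, 0.109) and had the family's 1 unadjusted p under 0.05 towards males. The family's median log2 ratio was 0.00. Among 13 tested genes for ligands of the receptors and for what becomes of them, 1 was called, Vdr, the vitamin D receptor, at 8.11 and 4.59 FPKM, and the median log2 ratio was 0.20. The same 2.34% of all tested loci stands beside that count. The widest ratio of the list was towards males: Gc, the vitamin D binding protein that megalin and cubilin take up, was at 0.130 and 0.938 FPKM (q of the authors' deposited table, 0.105). Folr1, a folate receptor, was at 491 FPKM in female and 618 FPKM in male pools (q of the authors' deposited table, 0.516), and Rbp4, the carrier of retinol that megalin binds, at 14.7 and 12.3 FPKM (q of the authors' deposited table, 0.935). Cyp27b1 and Cyp24a1, which activate and break down vitamin D, were below 0.1 FPKM in both sexes and had not been tested by the authors.

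Proximal tubule genes as a group lay towards females. Of 31 tested genes 15 were called higher in females and none higher in males, against 1.63% and 0.719% of all tested loci. An unadjusted p under 0.05 was reached by 21 towards females and by 1 towards males, with a median log2 ratio of 0.86; this list overlaps with one whose direction was known before, so it is no independent evidence. The summed level of the list was 626 FPKM in female and 288 FPKM in male pools. Its called genes of widest ratio were Slc22a7, an organic anion transporter, at 8.93 and 0.225 FPKM, Slc7a12, an amino acid transporter, at 92.7 and 9.70 FPKM, Cyp2e1, given above, and Gatm, an enzyme of creatine synthesis, at 13.8 and 3.88 FPKM. Slc5a2, the glucose transporter of the first part of the tubule, was at 0.188 and 0.250 FPKM and was not tested by the authors, and Slc5a1, that of its last part, was at 0.905 and 0.249 FPKM (q of the authors' deposited table, 0.0701).

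Set beside these 31 genes, 2 had a wider ratio than Tmigd1 and 3 a wider one than Cubn or Kap, while 19 were wider than Dab2 and 26 wider than Amn. In log2 units Kap and Cubn lay 1.94 above the median of the list and Tmigd1 2.25 above it, and Dab2 lay 0.25 and Amn 0.75 below it (-0.25 and -0.75). Since the genes were chosen with their ratios in view, nothing is read from these ranks and distances. In these bulk libraries fewer proximal tubule cells and less RNA per cell cannot be told apart, and the part that the amount of proximal tubule tissue in the pools has in the difference of the 5 genes was not tested.

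Hnf4a, a factor that acts on proximal tubule genes, was called at 3.47 FPKM in female and 1.55 FPKM in male pools (q of the authors' deposited table, 0.00703). Of 6 tested genes of sex hormone receptors and androgen response, 1 was called, against 2.34% of all tested loci, and the median log2 ratio was -0.04. The called gene was Odc1, the ornithine decarboxylase that androgen induces in mouse kidney, at 97.6 FPKM in female and 50.5 FPKM in male pools. Gusb, listed with it, was at 12.8 FPKM in female and 12.9 FPKM in male pools (q of the authors' deposited table, 0.999). Prlr, the prolactin receptor, lay the other way at 0.409 and 1.81 FPKM and did not pass (q of the authors' deposited table, 0.167).

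**Figure D4:**
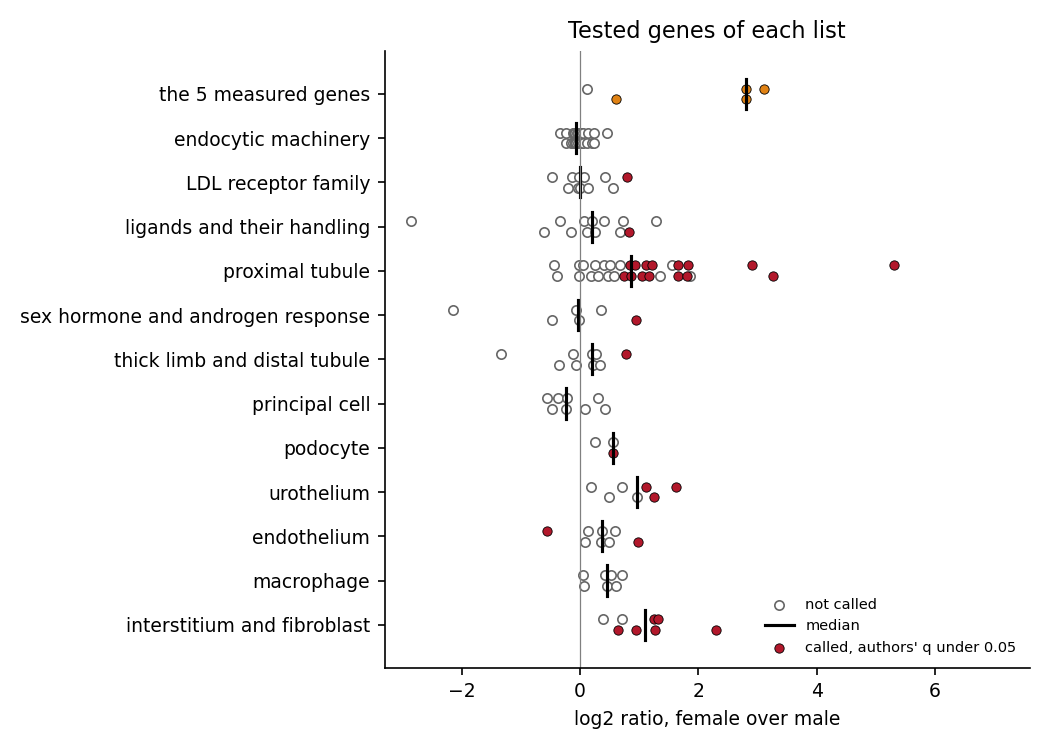
Log2 ratio of female to male for each tested gene of the lists found under its listed symbol, with a bar at the median. Filled points passed q under 0.05 by the authors' deposited table, and the top row holds the 5 genes. Genes of endocytic machinery drawn here lie close to 0, and those of the proximal tubule reach from -0.44 to 5.31. Amn, the open point of the top row, lies at 0.11. Ctsl, found under an older symbol and called at 0.58, is not drawn.

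Markers of other cell types were measured in the same values. Interstitial and fibroblast markers lay towards females, with 6 of 8 tested genes called higher there against 1.63% of all tested loci, a median log2 ratio of 1.10 and a summed level of 161 FPKM in female and 98.5 FPKM in male pools; the called genes of widest ratio were the matrix proteoglycan Lum, at 1.27 and 0.259 FPKM, the collagen chain Col1a1, at 4.00 and 1.60 FPKM, the growth factor receptor Pdgfra, at 14.8 and 6.17 FPKM, and Tnc, at 2.23 and 0.935 FPKM. Col1a2 was at 13.5 and 8.24 FPKM and was not called. None of 7 tested macrophage markers was called by the authors' deposited test, against 2.34% of all tested loci, a share near which that count lies. All 7 had the higher value in females, 5 of them with an unadjusted p under 0.05, and the median log2 ratio was 0.46. Cd68 was at 4.24 and 4.04 FPKM, and Cd163 was at 0.00761 FPKM in female pools and is listed at 0 for males. The part of these cells in the difference of Dab2 was not tested.

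Of 7 tested urothelial markers 3 were called higher in females, against the same 1.63%: the uroplakins Upk2 and Upk1b and the locus joining Krt5 with Krt73. Upk1b was at 4.99 FPKM in female and 2.30 FPKM in male pools, and Upk1a at 14.5 and 8.89 FPKM (q of the authors' deposited table, 0.0701). All 7 had the higher value in females, 5 of them with an unadjusted p under 0.05 by the authors' deposited test. Their median log2 ratio was 0.97. Of 8 tested endothelial markers, Plvap was called higher in females, at 240 and 122 FPKM, and Vwf higher in males, at 11.2 FPKM in males and 7.62 in females. Over all tested loci the shares called were 1.63% towards females and 0.719% towards males. Of the 8 genes 7 had the higher value in females, 5 of them and Vwf had an unadjusted p under 0.05, and the median log2 ratio was 0.37. Pecam1 was at 66.8 and 51.9 FPKM and Cdh5 at 7.80 and 7.37 FPKM. The podocyte marker Nphs1 was at 0.0383 and 0.111 FPKM and was not tested by the authors, while Podxl, which endothelium also expresses, was called at 29.7 and 20.3 FPKM. The 3 tested podocyte genes all lay towards females, with a median log2 ratio of 0.55, and 1 was called, against 1.63% of all tested loci.

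Umod, a marker of the thick limb in the outer medulla and cortex, was at 830 FPKM in female and 904 FPKM in male pools, and the transporter of sodium there, Slc12a1, at 231 and 199 FPKM, and neither was called. Of 9 tested markers of the thick limb and the distal tubule 1 was called, against 2.34% of all tested loci: Egf, at 7.61 and 4.42 FPKM. The median log2 ratio was 0.21, and 5 of the 9 had the higher value in females. The summed level of the list, of which Umod is the largest part, was 1380 FPKM in female and 1371 FPKM in male pools. Principal cell genes mark the collecting duct of the inner medulla itself. None of 8 tested was called by the authors' deposited test, against 2.34% of all tested loci, a share near which that count lies. An unadjusted p under 0.05 was reached by 1 towards females and by 2 towards males. The median log2 ratio was -0.23, and the summed level was 14338 FPKM in female and 19797 FPKM in male pools. Aqp2 was at 8463 FPKM in female and 11693 FPKM in male pools, and Aqp3 at 1332 and 1553 FPKM.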

How the data were processed

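The 4 libraries of total RNA from inner medulla were pools of 4 rats, 2 of each sex. The submitters' processing notes list TopHat2 2.1.1 and Cufflinks 2.2.1, besides StringTie, cutadapt and FastQC, with no role or order, and build rn5. The main table is laid out like Cuffdiff output with 1 value per sex, per the file headers; the unit is not stated and was read as FPKM made by the authors. For scaling between libraries and for use of strand, the method is not given in the sources used here. Deposited p-values and q-values are those of the authors; the deposited log2 fold and test statistic and the signed fold of a second deposited table were handled as scores. Read counts per library and mapping rates in percent (89.6% to 90.3%) were deposited by the authors. Without counts per locus no counting interval could be set.

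Ratios were recomputed from FPKM as female over male with no pseudocount, in Python 3.11.15 with pandas 2.3.3; they matched the deposited log2 fold to within 4.19e-05. A locus was called at a deposited q under 0.05. The design named limma only for values per pool, so with 1 value per sex no test was run here. Members and the 12 gene lists were chosen with earlier results of these data known. Symbols were matched in any letter case; 160 of 167 listed genes had a row, and 163 with older symbols from RefSeq (GRCr8). Named genes were the members, their 2 nearest loci, up to 4 called genes of widest ratio and the first 2 genes of each cell type list, and 10 genes chosen with the lists, of which some are not reported here. Others named were chosen after their values were seen. Promoters are from RefSeq, build GRCr8. The adjustment and ratio code was tested on simulated data. Alternatives covered pseudocounts, scaling, stricter calls and filters on low values.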

Additional observations from a re-analysis of the deposited data

How the results depend on the processing

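For the 5 genes, the direction was kept under pseudocounts of 0.1 and 1, scaling to equal sums or upper quartiles, and centring on the median. A pseudocount added to both sexes cannot turn a direction, and summing of rows changed nothing, since each symbol had 1 row. The deposited q was not computed again for these settings, so they could not test the call. Calls were kept with q adjusted again over loci with a mean of 1 FPKM or more, or 5 or more for Kap and Dab2. At q under 0.01 the calls of Kap, Cubn and Tmigd1 were kept and that of Dab2, log2 ratio 0.61, was lost. With a pseudocount of 1 the log2 ratio was 1.34 for Cubn and 1.82 for Tmigd1. At q under 0.01, calls higher in females numbered 0 of podocyte and 1 of urothelium markers, those higher in males 0 of endothelium markers, and loci called higher in males 90 in all against 146. Matching older symbols gave 1 call, Ctsl, among the endocytic machinery. Scaling to equal sums adds 0.06 to every log2 ratio and to equal upper quartiles 0.02. Leaving out a pool could not be run, and depth per locus is unknown. No paired analysis was possible because the deposited columns join the 2 pools of each sex into 1 value.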
